A study of Mus musculus with 6 samples.

Results

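The 8 genes described here encode lysine methyltransferases of the Mettl21 family (Mettl21a, Mettl21c and Mettl21e) and the Smyd family (Smyd1 to Smyd5). They were taken by symbol from the 48795 genes of the count table, and all 8 passed the filter on low counts. Quadriceps muscle from 20-week-old male C57BL/6 mice was sequenced in 2 groups of 3 libraries each. The MERKO group carried a muscle-specific loss of the estrogen receptor ERα, which is encoded by Esr1, and the control group was wild type. The sources used here do not give the driver of the deletion, and do not say whether each library came from a different animal, so the spread between libraries may be partly technical. The families were chosen by the difference of Mettl21e between the MERKO and control libraries of this data set, which was known beforehand. Differences of the 8 genes between these groups are therefore descriptions, without a test.

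Lysine methyltransferases transfer methyl groups from S-adenosylmethionine to lysine side chains. The Mettl21 proteins have a seven-strand methyltransferase fold and act mostly on chaperones and on translation elongation factors, whereas the Smyd proteins carry a SET domain split by a MYND zinc finger and act on histones and on cytosolic proteins. Mettl21a methylates Hsp70 chaperones, and Mettl21c and Mettl21e are genes of skeletal muscle with reported roles in protein turnover and fibre size. In humans the counterpart of Mettl21e is a pseudogene. Smyd1 is restricted to striated muscle and is needed for assembly of the myosin filament, and Smyd2 methylates Hsp90 and helps to hold titin in the sarcomere.

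The targeted gene was examined first. Esr1 stood at 6.75, 9.43 and 7.46 CPM (counts scaled to library size, with TMM factors) across MERKO 1 to 3, against 25.1, 34.1 and 31.1 CPM across control 1 to 3. It fell by 1.95 on the log2 scale (SE 0.16, adjusted p = 0.0262, edgeR quasi-likelihood test with Benjamini-Hochberg adjustment), and this call was lost without MERKO 1, MERKO 2, control 2 or control 3, with an adjusted p of up to 0.109. Library totals ran from 14935532 to 44282448 counts. An rRNA gene model took between 6.19% and 32.4% of counts in 5 libraries and 0.0433% in control 3, the deepest library. The markers of fast IIB fibres, the main fibre of mouse quadriceps, were abundant in every library, with Myh4 between 39867 and 81221 CPM.

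Mettl21c and Mettl21e lie on the same strand of chromosome 1 and belong to the same family. Their coding sequences were therefore compared to see whether reads could be shared. The alignment below shows the stretch around their longest run in common, in the last of the 5 exons of each coding transcript (GENCODE M21, GRCm38). Capitals mark bases that are identical in the pair. The Mettl21c stretch is chr1:44009820-44009878 and the Mettl21e stretch is chr1:44206540-44206598, both on the minus strand and within the coding region.
Mettl21c: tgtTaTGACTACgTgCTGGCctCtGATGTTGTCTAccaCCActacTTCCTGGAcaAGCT
Mettl21e: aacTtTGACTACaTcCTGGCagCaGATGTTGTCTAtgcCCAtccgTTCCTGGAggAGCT
In these 59 bases 41 were identical, and the longest exact run was 11 bases. Over the aligned coding bases Mettl21c and Mettl21e were 62.9% identical, Mettl21a and Mettl21e 61.5%, and Mettl21a and Mettl21c 58.4%. Pairs of Smyd genes gave 59.7% to 69.5% on this measure, which leaves out gapped positions. Mettl21c also shared a run of 11 bases with Smyd1 and with Smyd2. The longest exact run between any pair of the 8 coding sequences was 13 bases, shared by Smyd2 and Smyd3, so a longer read lying in these coding sequences has no exact match in a second member. Untranslated parts were not compared.

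Levels were compared between genes per kilobase of annotated exon. In control muscle Smyd1 was the most abundant member at 86.1 ± 0.93 CPM per kb (SD, n = 3), followed by Smyd2 at 56.6 ± 0.41 and Mettl21c at 9.59 ± 0.84 CPM per kb. Smyd1 and Smyd2 held 52.5% and 34.5% of the summed level of the 8 genes. Mettl21e came next at 6.27 ± 4.15 CPM per kb, followed by Mettl21a at 2.32 ± 0.27, Smyd4 at 1.44 ± 0.16, Smyd5 at 1.05 ± 0.10 and Smyd3 at 0.737 ± 0.11 CPM per kb. In this order the control libraries of Mettl21e overlapped those of its neighbours Mettl21c and Mettl21a, and every other pair of neighbours was separate. In MERKO muscle Mettl21e had the lowest mean of the 8 at 0.700 ± 0.17 CPM per kb. Its MERKO libraries overlapped those of Smyd3, which stood at 0.818 ± 0.14 CPM per kb. The lengths include retained introns. With the longest protein-coding transcript as length, a choice made after the data were seen, the control levels were 116.5 CPM per kb for Smyd1, 91.6 for Smyd2, 37.96 for Mettl21c and 2.47 for Smyd5. Smyd5 then stood above Smyd4, and the first 5 places did not change. The shares of the summed level became 44.5% for Smyd1 and 35.0% for Smyd2, and that of Mettl21c was 14.5% in place of 5.84%. This Mettl21c value divides the counts of all its exons, 4.3 kb, by a transcript of 1.086 kb. With the longest transcript of any type as length, a choice planned beforehand, Mettl21c stood at 11.8 CPM per kb in control and held 5.06%.

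**Figure D1:**
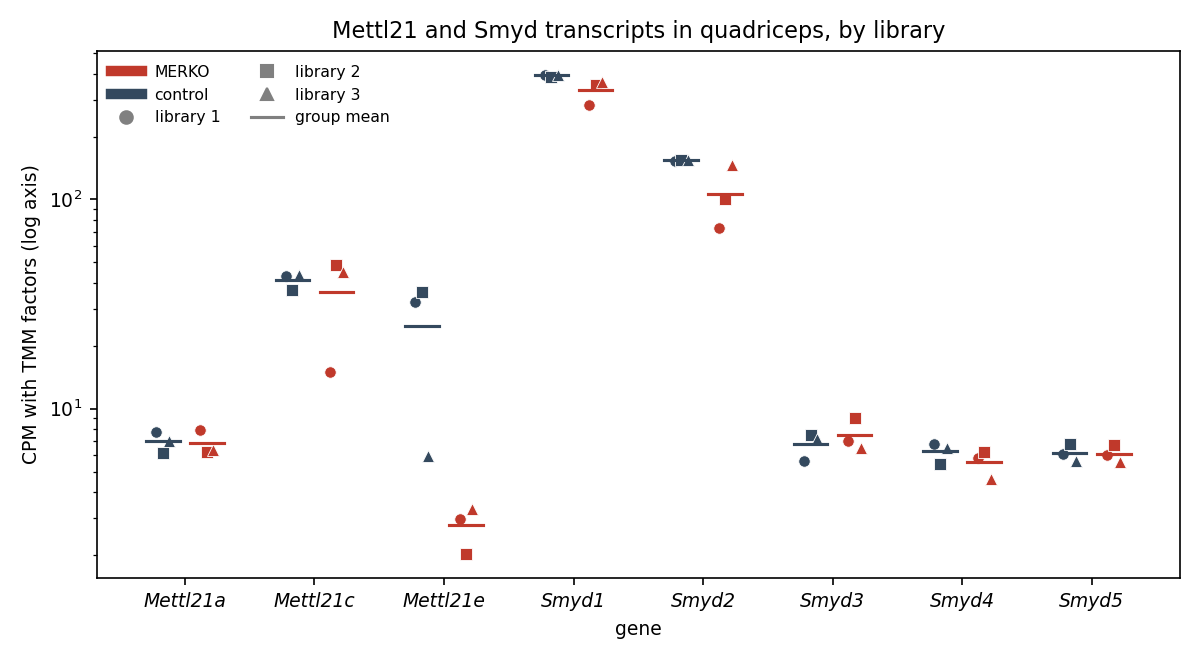
CPM with TMM factors (log axis) of the 8 genes in each library, with control libraries in dark blue, MERKO libraries in red, marker shape for the library number and a line for the group mean. Mettl21e ranged from 2.02 to 3.32 CPM in MERKO, against 5.96 to 36.0 CPM in control, and the 3 control libraries of Smyd1 and of Smyd2 nearly coincide.

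Mettl21e (ENSMUSG00000046828.3, chr1:44204070-44218961, minus strand) had 98, 24 and 69 counts in MERKO 1 to 3 and 774, 456 and 324 counts in control 1 to 3. In CPM these were 2.98, 2.02 and 3.32 in MERKO and 32.5, 36.0 and 5.96 in control. The groups did not overlap, but control 3 lay much closer to the MERKO libraries than to the other controls. The MERKO mean was 2.77 ± 0.67 CPM, against a control mean of 24.8 ± 16.4 CPM (SD, n = 3 each). The fitted log2 fold change was -3.10 (SE 0.62), which is 8.58-fold lower in MERKO. It was -3.59 without control 3, -2.74 without control 2, -2.83 without control 1, and between -3.23 and -2.95 when a MERKO library was left out.

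The spread of Mettl21e between control libraries was wide for its depth. Its coefficient of variation was 66.2% in control, against a median of 12.3% over all genes tested, while counting error alone would give at most 5.56% in a control library. In MERKO it was 24.3%, where counting error reached 20.4% in the library with 24 counts. As a percentage of Mettl21c counts in the same library, a measure that does not depend on scaling, Mettl21e stood at 19.9, 4.17 and 7.36 across MERKO 1 to 3, against 75.7, 97.0 and 13.7 across control 1 to 3. On this ratio MERKO 1 lay above control 3, so the groups overlapped. As a percentage of Smyd1 counts it stood at 1.05, 0.573 and 0.915 in MERKO and at 8.23, 9.30 and 1.52 in control, and the groups did not overlap.

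Genes around the pair were then examined, and from here on the MERKO mean comes first wherever means with SD follow one another (n = 3 each). Mettl21c and Mettl21e are 184 kb apart, with 6 annotated genes between them. Outside the pair, 6 genes of this interval and the flanking 100 kb had enough counts to be tested. Their log2 fold changes lay between -0.07 and 0.55, none passed (smallest adjusted p = 0.739, edgeR), and none had groups that did not overlap. Ercc5, an endonuclease of DNA repair and the protein-coding neighbour nearest to Mettl21e, stood at 18.9 ± 1.16 against 17.7 ± 1.88 CPM (log2 fold change 0.09, SE 0.11). Tpp2, the peptidase gene beyond Mettl21c, stood at 57.8 ± 3.26 and 57.98 ± 2.21 CPM (-0.00397, SE 0.09). Bivm, Tex30 and Kdelc1, which lie between the pair, had log2 fold changes of -0.07, 0.25 and 0.27. The pseudogene Gm15833 lies within an intron of Mettl21e on the opposite strand, with no exon in common, and stood at 4.27 ± 1.86 against 2.75 ± 0.72 CPM (0.55, SE 0.34).

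**Figure D2:**
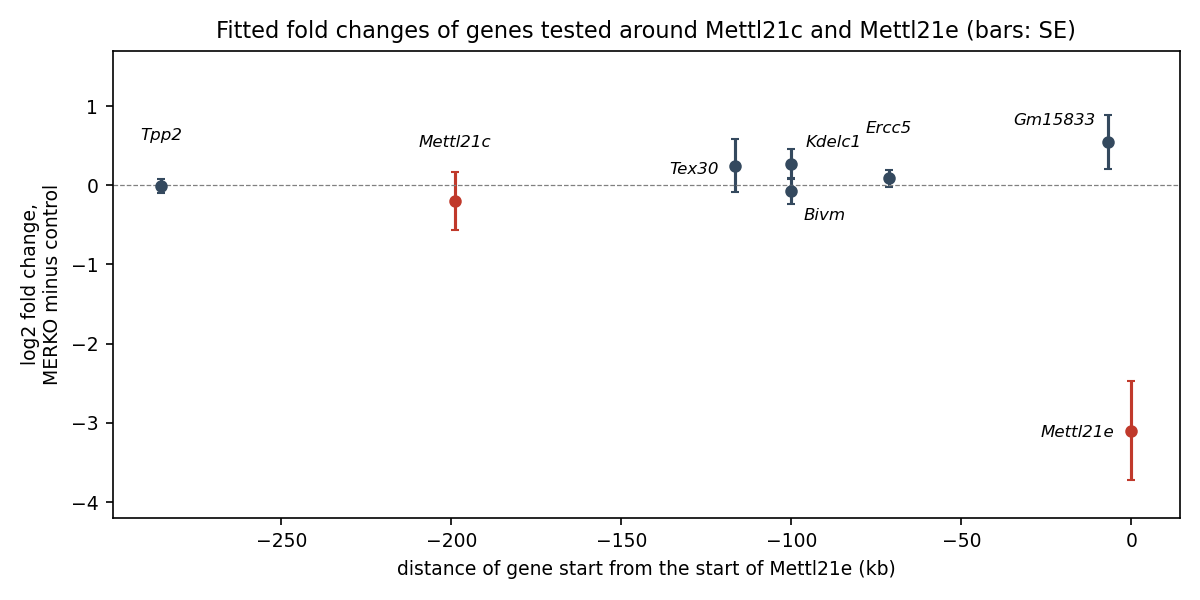
Fitted log2 fold change, MERKO minus control, with its SE (bars), against the distance of each gene's start from the start of Mettl21e in kb, for the 8 tested genes of the interval. Mettl21e, by whose difference the families were chosen, stands at -3.10, and the other 7 lie between -0.20 and 0.55.

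Mettl21c (ENSMUSG00000047343.4, chr1:44009408-44020034, minus strand), the member nearest to Mettl21e in the genome, showed another pattern. It stood at 14.99, 48.5 and 45.1 CPM across MERKO 1 to 3, against 43.0, 37.1 and 43.6 CPM across control 1 to 3. The 1 low library was MERKO 1, and the other MERKO libraries lay above every control library. The log2 fold change of -0.20 (SE 0.37) became 0.18 without MERKO 1. The overlapping pseudogene Gm15838 had 6 counts in all libraries together.

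Smyd1 (ENSMUSG00000055027.17, chr6:71213940-71322233, minus strand) stood at 283, 353 and 363 CPM across MERKO 1 to 3, against 395, 387 and 393 CPM across control 1 to 3. All MERKO libraries lay below all control libraries. The log2 fold change was -0.23 (SE 0.12), which leaves 85.0% of the control level, and it was -0.13 without MERKO 1.

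Smyd2 (ENSMUSG00000026603.13, chr1:189880492-189922363, minus strand) stood at 73.3, 101 and 146 CPM across MERKO 1 to 3, against 153, 155 and 154 CPM across control 1 to 3. Again the groups did not overlap, with MERKO 3 close to the controls and MERKO 1 farthest below them. The log2 fold change was -0.53 (SE 0.22), which leaves 69.3% of the control level. It was -0.32 without MERKO 1 and -0.82 without MERKO 3. An antisense gene that shares exon bases with Smyd2, Gm37422, had 57 counts in all libraries together.

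The 3 control libraries agreed closely for both genes. The coefficient of variation in control was 1.08% for Smyd1 and 0.725% for Smyd2. Counting error alone gives 1.03%, 1.43% and 0.684% for Smyd1 across control 1 to 3, and 1.66%, 2.26% and 1.09% for Smyd2. The value of Smyd1 lay within its range and that of Smyd2 below its range. In MERKO the coefficient of variation was 13.0% for Smyd1 and 34.6% for Smyd2, against a median of 13.7% over all genes tested. The count of Smyd2 per 100 counts of Smyd1 was 25.9, 28.5 and 40.4 across MERKO 1 to 3, against 38.7, 40.045 and 39.2 across control 1 to 3. On this ratio MERKO 3 lay above every control and the other MERKO libraries below, so that Smyd2 and Smyd1 did not move in proportion within the MERKO group.

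Of the 8 genes, Mettl21e, Smyd1 and Smyd2 had all MERKO libraries below all control libraries and 0 had the reverse, against 7.10% and 6.17% of the 13628 genes tested. In the edgeR fit 0 of the 8 passed the threshold of 0.05 on the adjusted p, against 0.00734% of all genes tested, which is Esr1 alone. Mettl21e was the 1 member called with no composition factor (0.682% of genes called), with no filter (0.54%), with DESeq2 (0.166%) and without control 3 (0.0143%), and 0 members were called with the replicate number as a block (0.374%). The fitted value was below 0 for 7 of the 8, against 47.9% of genes. Since the families were chosen from this comparison, nothing is read from these counts. The median log2 fold change of the 8 was -0.19, and that of all genes tested was 0.01.

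The upstream sequences of Smyd1 and Smyd2 are set side by side because both genes lay lower in every MERKO library. That choice rests on the same comparison, so the pairing is a description only. No upstream sequence was used here for Mettl21c, Mettl21e or Smyd3. Sequences were found for 5 of the 8 genes in the RefSeq promoter windows (GRCm38.p6), which run from 250 bases before to 50 bases after the annotated start. The first 150 bases of the windows of Smyd1 (chr6:71262382-71262531) and Smyd2 (chr1:189922392-189922541), both read on the minus strand, are shown with CG dinucleotides in capitals. The Smyd1 stretch lies inside the annotated gene but in none of its exons, and the Smyd2 stretch lies upstream of the gene.
Smyd1: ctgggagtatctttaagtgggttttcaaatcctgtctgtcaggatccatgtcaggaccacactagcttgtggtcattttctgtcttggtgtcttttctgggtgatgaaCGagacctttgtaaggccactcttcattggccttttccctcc
Smyd2: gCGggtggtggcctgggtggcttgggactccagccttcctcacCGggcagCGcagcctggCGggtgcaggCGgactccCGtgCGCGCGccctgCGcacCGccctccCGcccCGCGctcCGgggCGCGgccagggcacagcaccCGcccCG
The pair differed in base composition, with 1 CG dinucleotide and 46.7% G or C in the Smyd1 stretch and 19 CG dinucleotides and 80.7% G or C in the Smyd2 stretch. In the whole 300-base windows there were 3 and 43 CG dinucleotides, and 13 to 34 in those of Mettl21a, Smyd4 and Smyd5. Both strands were searched for the palindromic estrogen response element (GGTCA, any 3 bases, then TGACC), its half-site AGGTCA, the E-box CANNTG bound by myogenic factors, the CArG box and the MEF2 site. The Smyd1 and Smyd2 windows held none of the 5. The full estrogen response element occurred in 0 of the 5 member windows and in 0.07% of all 32851 windows, and the half-site in the window of Mettl21a and in 16.3% of all windows. An E-box occurred in the windows of Mettl21a, Smyd4 and Smyd5 and in 72.3% of all windows, and no member window held a CArG box or a MEF2 site (1.63% and 3.19% of all windows).

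Mettl21c, Smyd1 and Smyd2 were all lowest in MERKO 1, which also had the lowest sum of fast IIB markers. The summed level of 10 genes of fast IIB fibres was 86380 CPM in MERKO 1 and ranged from 116400 to 150200 CPM elsewhere. The summed level of Myh1 and Myh2, the myosins of IIX and IIA fibres, was 13182 CPM in MERKO 1 and 7596 CPM in control 1, while the remaining 4 libraries ranged from 739 to 4247 CPM. The 11 slow-fibre genes summed to 604 CPM in MERKO 1 and 626 CPM in control 1, against 61.1 to 72.9 CPM elsewhere. Control 1, whose slow-fibre sum was as high, stood at 43.0 CPM for Mettl21c, 395 CPM for Smyd1 and 153 CPM for Smyd2. In MERKO 2, which had the highest IIB sum, Smyd2 was at 101 CPM. In bulk tissue fewer fibres of a type and less RNA per fibre cannot be told apart, and the part of fibre type in these values was not tested. Mettl21e was low in all 3 MERKO libraries, with 2.98 CPM in MERKO 1, the library with the lowest IIB sum.

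**Figure D3:**
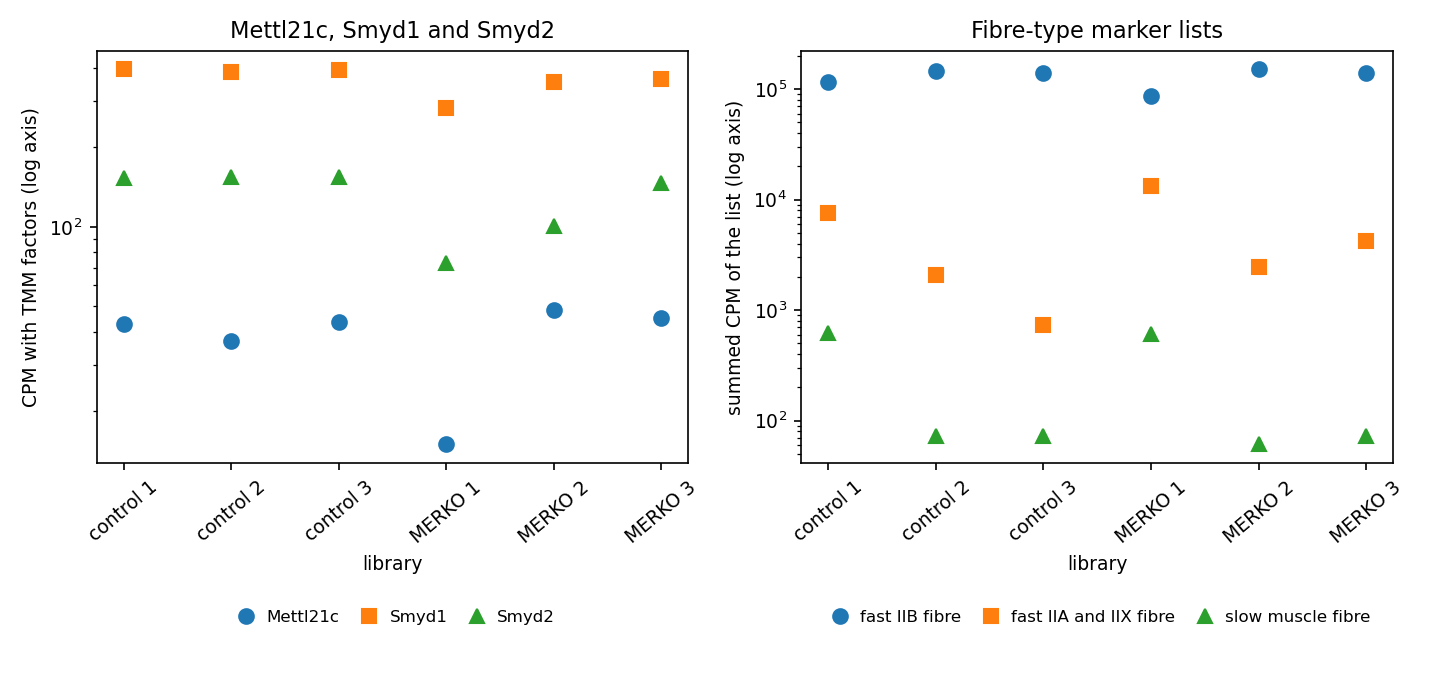
Left, CPM with TMM factors of Mettl21c, Smyd1 and Smyd2 in each library, and right, the summed CPM of 3 fibre-type marker lists in the same libraries, both on log axes. MERKO 1 has the lowest value of all 3 genes and of the IIB list, and shares its high slow-fibre sum with control 1.

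The groups overlapped in each of the other 4 members. Mettl21a (ENSMUSG00000025956.10, chr1:64606473-64617242, minus strand) stood at 6.83 ± 0.93 against 6.96 ± 0.81 CPM, with a log2 fold change of -0.02 (SE 0.15) that changed sign in 3 of 15 alternative analyses. Smyd5 (ENSMUSG00000033706.13, chr6:85431989-85446435, plus strand), a SET-domain enzyme reported to act on histone H4, stood at 6.10 ± 0.60 and 6.14 ± 0.60 CPM, with a log2 fold change of -0.00608 (SE 0.14) that changed sign in 6 of 15. Smyd3 (ENSMUSG00000055067.15, chr1:178951960-179518041, minus strand), which methylates the kinase Map3k2, was the 1 member with a higher mean in MERKO, at 7.02, 9.01 and 6.50 CPM across MERKO 1 to 3, against 5.63, 7.497 and 7.17 CPM across control 1 to 3. Its log2 fold change was 0.14 (SE 0.17), with values from 0.01 to 0.24 when a library was left out. Smyd4 (ENSMUSG00000018809.2, chr11:75348433-75405705, plus strand) stood at 5.54 ± 0.83 and 6.24 ± 0.70 CPM, with a log2 fold change of -0.19 (SE 0.16) that was -0.07 without MERKO 3. Counting error reached between 10.3% and 12.0% in the shallowest libraries of these genes. Their SE of 0.14 to 0.17 were close to the 0.12 of Smyd1, whose counting error was at most 1.54%.

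Proteins on which the 2 families act were examined at the transcript level. Over all genes tested 47.9% of fitted values were below 0, the background for each list that follows. Of 16 reported substrates and partners, 10 had higher and 6 lower fitted values in MERKO (median log2 fold change 0.10). Of these 0 passed the edgeR threshold, with 2 at an unadjusted p under 0.05 (7.04% of all genes tested). Vcp, the AAA ATPase methylated by members of the Mettl21 group, stood at 273 ± 31.0 against 278 ± 17.4 CPM (log2 fold change -0.03, SE 0.12). Hspa8, the constitutive Hsp70 of the cytosol, stood at 652 ± 25.4 and 655 ± 31.4 CPM (-0.00805, SE 0.11). Eef1a2, the muscle form of elongation factor 1A, stood at 885 ± 51.9 and 921 ± 25.6 CPM (-0.06, SE 0.12), and Eef1a1, the general form, at 266 ± 35.5 and 283 ± 37.4 CPM (-0.09, SE 0.14). For the signs of Vcp, Hspa8 and Eef1a1 at least 2 of 15 alternatives gave the reverse.

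The 2 substrates with an unadjusted p under 0.05 were inducible Hsp70 genes. Hspa1b stood at 2.25, 1.77 and 1.97 CPM across MERKO 1 to 3, against 0.462, 0.473 and 0.717 CPM across control 1 to 3 (log2 fold change 1.79, SE 0.29, adjusted p = 0.597, edgeR). Hspa1a stood at 3.95, 1.77 and 2.36 CPM across the MERKO libraries, against 1.72, 0.552 and 0.956 CPM across the controls (1.32, SE 0.43, adjusted p = 0.668). The groups did not overlap in either, as in 13.3% of all genes tested. Reads of these near-identical copies may have been shared between them. Among the partners of Smyd1 in myosin folding, Unc45b, a myosin chaperone, stood at 286 ± 48.3 and 254 ± 23.0 CPM (0.17, SE 0.15), Hsp90aa1 at 33.4 ± 5.53 and 30.1 ± 1.18 CPM (0.15, SE 0.13), and Naca, whose muscle form binds Smyd1, at 46.6 ± 12.0 and 40.4 ± 4.59 CPM (0.21, SE 0.19). Hsp90ab1, the abundant Hsp90, stood at 539.7 ± 83.1 and 545 ± 25.6 CPM (-0.01, SE 0.14). Ttn, the giant sarcomere protein held by Smyd2 and Hsp90, ranged from 74869 to 147980 CPM in MERKO and from 48447 to 100740 CPM in control (0.51, SE 0.53), so that the groups overlapped.

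The remaining substrates had log2 fold changes of 0.12 for Hspa5, 0.09 for Hspa9, 0.11 for Map3k2, -0.00568 for Trp53 and 0.03 for Rb1.

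Other enzymes of related methyltransferase families, and lysine demethylases, were set beside the members. Over all genes tested 47.9% had a fitted value below 0 and 13.3% had groups that did not overlap. Of 12 tested further genes of the seven-strand family, 2 had higher and 10 lower fitted values in MERKO (median log2 fold change -0.15). Of these 0 passed the threshold and 1 had an unadjusted p under 0.05. That gene was Vcpkmt, also known as Mettl21d, which methylates Vcp. It stood at 0.973, 0.505 and 1.01 CPM across MERKO 1 to 3, against 1.47, 1.74 and 1.36 CPM across control 1 to 3 (log2 fold change -0.79, SE 0.31, adjusted p = 0.683, edgeR). The groups did not overlap in it, nor in Mettl13, which methylates elongation factor 1A, at 6.999 ± 0.84 and 8.30 ± 0.24 CPM (-0.26, SE 0.13). Mettl22 stood at 48.8 ± 4.31 and 55.6 ± 3.64 CPM (-0.19, SE 0.10) and Mettl23 at 19.4 ± 2.22 and 22.99 ± 2.60 CPM (-0.25, SE 0.13), with overlap between the groups.

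Of 32 genes of the SET-domain and Dot1 classes, 21 had higher and 11 lower fitted values (median log2 fold change 0.08). Of these 0 passed, with 2 at an unadjusted p under 0.05. Groups did not overlap in 2 with MERKO lower and in 5 with MERKO higher, against 7.10% and 6.17% of all genes tested. Dot1l, which methylates lysine in the histone core, stood at 10.6 ± 0.64 against 8.16 ± 0.84 CPM (0.39, SE 0.12), and Setmar at 2.24 ± 0.48 and 3.33 ± 0.30 CPM (-0.57, SE 0.21). Next by p came Kmt2a, a writer of active histone H3 marks, at 22.8 ± 4.69 and 18.1 ± 1.25 CPM (0.32, SE 0.15), and Kmt5c at 3.31 ± 0.24 and 2.49 ± 0.45 CPM (0.43, SE 0.20). Of 19 lysine demethylases, 14 had higher and 5 lower fitted values (median 0.06), and 0 passed and 0 had an unadjusted p under 0.05. The lowest p among them belonged to Kdm6b, which removes repressive methylation from histone H3, at 4.77 ± 0.90 and 3.63 ± 0.18 CPM (0.39, SE 0.18). Kdm2b followed at 8.92 ± 1.01 and 7.197 ± 1.33 CPM (0.31, SE 0.17), then Jmjd1c and Kdm2a, each at 0.11, which became -0.01 with no composition factor. The smallest adjusted p over these 3 lists was 0.668 in the edgeR fit.

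**Figure D4:**
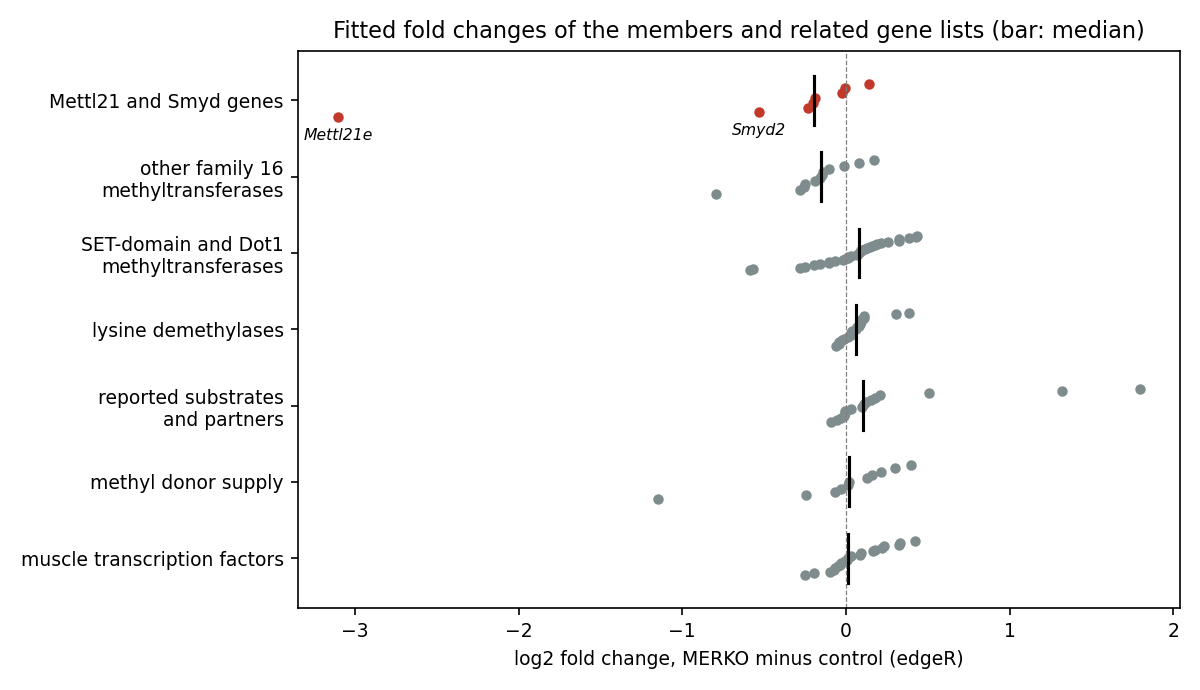
Fitted log2 fold change, MERKO minus control, of each tested gene (points) in the 8-gene set (red) and in the 6 related gene lists (grey), with the median of each list as a black bar. Mettl21e, by whose difference the families were chosen, stands at -3.10. The related lists run from -1.15 (Nnmt) to 1.79 (Hspa1b), and all genes tested from -3.58 to 5.56.

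The supply of methyl groups and the transcription factors of muscle were examined last. Of 11 genes that make or use S-adenosylmethionine, 7 had higher and 4 lower fitted values (median log2 fold change 0.02), and 0 passed, with 2 at an unadjusted p under 0.05. Mtr, methionine synthase, stood at 22.97 ± 2.01 and 18.6 ± 0.95 CPM (0.30, SE 0.10), and Nnmt, which uses the methyl donor to methylate nicotinamide, at 0.730, 0.758 and 1.06 CPM across MERKO 1 to 3, against 0.966, 3.31 and 1.65 CPM across control 1 to 3 (-1.15, SE 0.46, and -0.65 without control 2). Ahcyl1 and Ahcy, of the enzyme family that clears S-adenosylhomocysteine, had log2 fold changes of 0.13 (SE 0.08) and -0.25 (SE 0.17). Of 21 muscle transcription factors, 12 had higher and 9 lower fitted values (median 0.01), and 0 passed, with 1 at an unadjusted p under 0.05. Six4, a homeobox factor of muscle, stood at 31.6 ± 2.03 and 26.8 ± 1.64 CPM (0.23, SE 0.10), and Myf6, the myogenic factor of adult fibres, at 49.9 ± 5.79 and 59.2 ± 3.40 CPM (-0.25, SE 0.11). Tead1, a partner of Hippo pathway coactivators, had a log2 fold change of 0.17 (SE 0.13).

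Markers of other cells that whole muscle can hold were summed per library. The 10 genes of denervated muscle summed to 31.2 to 36.8 CPM in MERKO and 26.5 to 30.6 CPM in control, with 8 of 10 higher in MERKO. The 8 adipocyte genes summed to 115 to 147 CPM in MERKO and 148 to 482 CPM in control, with 0 of 8 higher in MERKO, and the 8 tendon genes to 82.2 to 394.6 and 29.7 to 83.2 CPM, with 8 of 8 higher by their means. The 6 nerve genes summed to 35.1 to 53.9 and 25.1 to 32.9 CPM, with 6 of 6 higher. The tendon sums overlapped between the groups. So did those of 5 endothelial genes (140 to 186 and 124 to 178 CPM) and 5 satellite cell genes (60.7 to 77.6 and 53.3 to 64.5 CPM). The same held for 4 macrophage genes (48.6 to 73.6 and 49.5 to 86.3 CPM) and 4 genes of fibro-adipogenic progenitors (413 to 646.5 and 427 to 668 CPM). By fitted value, 47.9% of all genes tested were lower in MERKO. No marker was at 0 in all libraries. Their part in the values of the 8 genes was not tested.

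The genes whose pattern was most like that of Mettl21e over the 6 libraries were Agmo, an ether lipid monooxygenase, Cpeb3, an RNA-binding regulator of translation, Mvk, mevalonate kinase, D5Ertd579e and Rmc1, with Pearson correlations of log2 CPM from 0.968 to 0.985. Their differences were far smaller than that of Mettl21e. Agmo, the closest, stood at 4.68, 4.21 and 4.62 CPM across MERKO 1 to 3, against 6.34, 6.16 and 5.20 CPM across control 1 to 3, with control 3 again the lowest control. Cpeb3 stood at 36.8, 36.7 and 38.4 CPM across the MERKO libraries, against 46.8, 45.1 and 38.5 CPM across the controls. Among the members themselves, the correlation with Mettl21e was 0.63 for Smyd2, 0.59 for Smyd1, 0.18 for Mettl21c and -0.50 for Smyd3. For Mettl21c the closest genes were Syngr2, Tom1l1, Fbxw5, Nudt9 and Stxbp4 (0.981 to 0.995), and among members Smyd1 (0.87) and Smyd2 (0.75). Stxbp4, a syntaxin-binding protein, stood at 13.3 CPM in MERKO 1 and ranged from 23.4 to 27.8 CPM elsewhere, so that the likeness to Mettl21c rests on MERKO 1. The closest came from 12060 genes with an average log2 CPM of at least 0, less those with Gm or Rik names or no symbol. With 6 libraries that share groups, and the best of so many genes taken, these correlations are descriptions only.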

How the data were processed

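The authors deposited raw read counts per gene for 6 libraries, and tools listed in the submitters' processing notes are HTSeq 0.9.1, STAR 2.5.2b and DESeq, beside the builds GRCm38 and mm10. Strand setting, annotation release and the handling of multiply placed reads are not given here, so overlapping genes and near-identical copies are uncertain. Counts were fitted in edgeR 4.0.16 by its quasi-likelihood test, under R 4.3.3 (filterByExpr, TMM factors, genotype as the term), with Benjamini-Hochberg adjustment over 13628 genes and a threshold of 0.05. The code was tested on simulated data. CPM use TMM factors. Symbols matched 48349 identifiers, and coordinates and exon lengths come from GENCODE M21. Sequences are from GENCODE transcripts and RefSeq promoters, aligned with Biopython 1.88.

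The members, the 6 related lists and the 11 marker lists were chosen with earlier results of these data known. Named genes are the members, Esr1, up to 4 genes of lowest p per related list (1 of them is not reported here), all substrates, genes within 100 kb of Mettl21c and Mettl21e, and the 5 genes closest to each of these in Pearson correlation. Alternatives were DESeq2 1.42.0, limma-voom (limma 3.58.1), other scalings and filters, a replicate block and leaving out libraries. Counts without molecular identifiers are not independent molecules, so counting errors cover counting only.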

Additional observations from a re-analysis of the deposited data

How the results depend on the processing

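The edgeR count of 1 gene past the threshold (Esr1) became 93 with no composition factor, 140 with no filter, 23 with DESeq2 and 51 with the replicate block, and 7 without MERKO 1 and control 1 together. Lower against higher calls split 49 to 44, 54 to 86, 10 to 13 and 20 to 31 in the first 4 of these and 5 to 2 in the last. The count ranged from 0 to 11 when 1 library was left out, with 0 without MERKO 1 or MERKO 2, 11 without MERKO 3, 2 without control 1 or control 3, and 1, which was not Esr1, without control 2. Of the 8 members, 1 passed with no composition factor (0.682% of all genes tested), with no filter (0.54%), with DESeq2 (0.166%) and without control 3 (0.0143%). In each case it was Mettl21e, and 0 passed in the other alternatives, a range of 0 to 1 over the left-out libraries. The families were chosen by the difference of Mettl21e in this comparison, so nothing is read from these calls. Of the related lists, 1 gene, Hspa1b, passed with no filter and with DESeq2, and 0 when any library was left out (adjusted p from 0.00919 to 0.788 over its alternatives). The adjusted p of Esr1 ran from 8.55e-21 to 0.109. The cause of these shifts was not tested. Without a composition factor the median log2 fold change of all genes was -0.10 in place of 0.01. Same-numbered libraries had correlations of their deviations of 0.448, 0.163 and 0.0612. MERKO 2 correlated more with control 3 (0.184), and MERKO 3 more with control 2 (0.137). Chi-square per degree of freedom of the counts was lowest for MERKO 1 with control 1 (59.6) and MERKO 2 with control 2 (25.7). For MERKO 3 it was lowest with control 2 (44.6). The labels do not say that the numbers pair animals, so the block stayed an alternative. The replicate block gave a log2 fold change of -2.80 for Mettl21e and -0.58 for Smyd2. The fitted log2 fold changes of Mettl21e, Smyd1, Smyd2, Smyd3 and Smyd4 kept their sign in all 15 alternatives, Mettl21e between -3.59 and -2.55 and Smyd1 between -0.38 and -0.12. That of Mettl21c turned in 2, both without MERKO 1.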
